A study of Mus musculus with 6 samples.

Results

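The 16-base site ACCGGAAGTGACGTCA joins an ETS sequence to a cyclic AMP response element (CRE), and its position 8, counted from 1 at the 5′ end, is the G between the ETS core GGAA (positions 4 to 7) and the CRE TGACGTCA (positions 9 to 16). The variants described here carry A, C or T in place of that G, either alone or with a second substitution at positions 10 to 16. They were chosen by sequence: custom 60-base probes with the site starting at base 11 (middle placement) or base 21 (inner placement) of the probe, on either strand. This gave 66 of the 1129 sites made up of the unmutated site and every single and double substitution of it. The 66 are 3 singles and 63 doubles, each in 4 placements, among 10812 sequences tested.

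GABPα is an ETS factor, and ETS domains contact a GGAA core together with the bases on either side of it, where the base after the core is usually a purine. CREB1 is a basic leucine zipper (bZIP) factor that binds as a dimer, each subunit reading one arm of the palindromic CRE. In this composite site the base at position 8 belongs to the ETS sequence and flanks the CRE at the same time. The first base of the CRE, T at position 9, also mattered for GABPα here. With GABPα alone, T9A and T9G were below background in every placement.

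In protein binding microarrays a tagged protein is incubated with double-stranded DNA spots and its signal is read per spot. Mouse proteins made by in vitro translation were used in 3 groups of 2 arrays: GABPα fused to glutathione S-transferase (GST) alone, GST-tagged GABPα with untagged CREB1 added, and GST-tagged CREB1 alone. Each reaction held 570 ng of the plasmid for the tagged protein in 250 µl, with 66 ng of untagged CREB1 plasmid in the mixed group. Translation ran at 37 °C for 2 h and 230 µl was applied. In the mixed group the tag was on GABPα, so its signal reports GABPα. The labels give a bZIP domain for every sample, GABPα included, and leave unstated whether arrays of one group used different protein preparations. The p-values therefore measure only the spread between these arrays, which may be technical. The main fits shared the estimate of that spread across their groups and drew on all variants. A p-value thus does not measure the spread of a single variant or group.

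The unmutated site and its 3 single changes are printed first because every result below compares them. The changed base is in capitals.
unmutated: accggaagtgacgtca
G8A: accggaaAtgacgtca
G8C: accggaaCtgacgtca
G8T: accggaaTtgacgtca
Of the doubles, these pair a base at position 8 with a change in the CRE and are the ones whose departures or regained signal are described in most detail. G8A+G10C and G8A+G10T lost more GABPα signal than their single changes add up to, G8C+C15A and G8C+G10T kept most GABPα signal among C doubles when CREB1 was added, and G8T+A16C and G8C+T14G lost more CREB1 signal than the sum of their parts.
G8A+G10C: accggaaAtCacgtca
G8A+G10T: accggaaAtTacgtca
G8C+C15A: accggaaCtgacgtAa
G8C+G10T: accggaaCtTacgtca
G8T+A16C: accggaaTtgacgtcC
G8C+T14G: accggaaCtgacgGca
The probes that hold the site are shown for the unmutated site, with the 16 bases of the site in capitals, because strand and placement change the measured effects. On the reverse strand the site reads as its complement.
unmutated, middle forward: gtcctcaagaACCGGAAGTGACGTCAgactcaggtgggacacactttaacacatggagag
unmutated, middle reverse: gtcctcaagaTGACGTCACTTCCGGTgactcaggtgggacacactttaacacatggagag
unmutated, inner forward: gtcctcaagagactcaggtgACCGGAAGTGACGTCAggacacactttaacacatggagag
unmutated, inner reverse: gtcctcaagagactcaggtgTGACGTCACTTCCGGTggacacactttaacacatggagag
A search of both strands found GGAA in the 16 bases of all 66 variants. The full CRE TGACGTCA was in the 3 singles, and its arm TGACG, which overlaps it, in 48 of the 66. The related bZIP motif TGACTCA was in none of the 66 sites, but the junction of the site with the flank formed it in all 66 middle reverse probes and in 3 middle forward probes, those with A16T, and in no inner probe. Among the 10646 sequences of 60 bases on the array, GGAA was in 51.7%, TGACGTCA in 15.9%, TGACG in 45% and TGACTCA in 10.2%.

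Each member sequence had 15 to 24 usable spots per array, and the unmutated site 45 to 48 per placement. The share of all tested sequences above background was 16.7% to 23.9% on the GABPα arrays and 55.3% and 59.3% on the CREB1 arrays, and the number of arrays, 2 per group, limits the precision. Arrays 1 of both GABPα groups shared a slide, as did arrays 2, while the CREB1 arrays lay on slides of their own and were scanned on another day. CREB1 effects therefore cannot be told apart from slide and day when set beside GABPα effects, and are compared here within the CREB1 arrays. The effect of a variant is its log2 processed intensity minus that of the unmutated site in the same placement on the same array, averaged over the 4 placements, so 0 is no change and a negative value is a loss. Mean effects are given ± SD over the 2 arrays of a group (n = 2), with adjusted p-values from limma.

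The replaced base decided how much GABPα signal was left. For GABPα alone in the middle forward placement, the unmutated site read 3539 and 7327 intensity units on the 2 arrays. G8A read 2247 and 4106, whereas G8C read 167 and 305 and G8T 167 and 293, below background. Both arrays thus kept signal at A and lost it at C and T. Across placements the G8A effect was -0.75 and -0.90, a mean of -0.82 ± 0.10, or 1.77-fold lower (adjusted p = 6.61e-10). G8C and G8T were below background in every placement on both arrays, where the scanner software substitutes a set value for the signal, and were at least 4.64-fold lower than the unmutated site (fitted adjusted p = 3.73e-184 and 3.31e-184). Their order relative to each other cannot be read from these values. In the authors' deposited table, which is not set to such a value, the middle placements of G8C were at 15.9% and 9.33% of the unmutated site and those of G8T at 7.96% and 4.42%. In that table G8A was at 83.4% and 73.6%, and its effect over the 4 placements, -0.52, did not pass the test (adjusted p = 0.0557). Among the 48 single substitutions ordered from mildest to most severe, G8A was number 22. It lay below all 21 singles at positions 10 to 16 and above the other 26, and differed from each of the 47 others in pairwise tests adjusted over all pairs of the 48 singles. Its mildest neighbour on the ETS side, A1G, was at -1.09 (G8A minus A1G 0.27, adjusted p = 0.00534).

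With CREB1 added, C at position 8 no longer abolished GABPα signal but T still did. In the middle forward placement the unmutated site read 6669 and 8097, G8A 4505 and 6350, and G8C 2405 and 3309. G8T read 141 and 199, still below background. On each array the order was therefore unmutated, A, C and then T. The mean effects were -0.35 ± 0.11 for G8A (1.27-fold lower, adjusted p = 0.00845, but -0.27 and adjusted p = 0.0873 without array 1 of the mixed group, and -0.38 and adjusted p = 0.116 in the authors' table) and -1.99 ± 0.11 for G8C (adjusted p = 1.53e-49), G8C being above background in 3 of 4 placements. G8T was below background in all 4 and at least 8.0-fold lower. In the middle placements, where G8C was above background on both arrays, its effect was -1.77 and -1.52, a mean of -1.64 ± 0.18, or 3.13-fold lower. Without CREB1 the same placements were at least 6.06-fold lower, so the share of signal kept by G8C was at least 1.95 times as large with CREB1. The fitted difference of 2.81 (adjusted p = 7.85e-37, 2.57 on 1 slide and 3.05 on the other) rests on substituted values without CREB1. In the authors' deposited table G8C kept 38.3% and 40.8% of the unmutated signal in the middle placements with CREB1, against the 15.9% and 9.33% without it. G8T stood at 5.84% and 3.95% in that table.

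For CREB1 alone the single changes at position 8 cost little. In the middle forward placement the unmutated site read 46343 and 44058, G8A 41108 and 37716, G8C 37879 and 34066, and G8T 32247 and 28378. The arrays gave the same order in that placement, G above A, C and T. In the middle reverse placement G8A was not below the unmutated site, at 59123 and 54592 against 57820 and 54170. Saturated spots there were 40% and 33.3% for G8A and 23.9% and 25% for the unmutated site. In the inner placements G8A was below the unmutated site on each array. The mean effects and the direct comparisons of bases that follow include the saturated spots. The mean effects were -0.11 ± 0.02 for G8A, -0.31 ± 0.04 for G8C and -0.56 ± 0.04 for G8T. G8A did not pass the test (adjusted p = 0.485, 95% interval -0.37 to 0.15), while G8C (adjusted p = 0.0265) and G8T (adjusted p = 3.07e-05) were lower. G8C missed the threshold in the middle placements alone (-0.26, adjusted p = 0.122), with the variance fitted as a trend on intensity (-0.31, adjusted p = 0.160) and in the authors' table (-0.30, adjusted p = 0.394), where G8T missed it too (-0.52, adjusted p = 0.217). G8C also missed it without array 2 of CREB1 (-0.28, adjusted p = 0.0931) and without either array of GABPα alone, whose spread enters the shared fit (-0.31, adjusted p = 0.0533 for both). Compared directly with the rest of the site intact, A exceeded C by 0.19 (adjusted p = 9.63e-04), A exceeded T by 0.45 (adjusted p = 2.05e-04) and C exceeded T by 0.26 (adjusted p = 0.00144). In the order of the 48 singles G8A stood at number 21 and did not differ beyond the spread from 19 of the 47 others, G8C at 23 next to C15A, and G8T at 26 next to G10T. Neither of these 2 neighbours differed from it beyond the spread (adjusted p = 0.431 and 0.494).

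Counted over all 66 variants, every one was lower than the unmutated site for GABPα alone and with CREB1, against 82.6% and 98.8% of all variants tested, and 65 were lower for CREB1 alone, against 78.8%. The exception for CREB1 was G8A. The count alone therefore says little, and the members differ in how far they were lowered and in whether they stayed above background. For GABPα alone 15 of the 22 variants with A were above background in all 4 placements and the other 7 in some, while none of the 44 with C or T was above background in any. With CREB1 the numbers were 21 and 1 for A. Of the 22 with C, 10 were above background in some placements, and of the 22 with T none was. For CREB1 alone 57 of the 66 were above background in all placements and the other 9 in some. Median effects were -0.82, -4.07 and -4.08 for A, C and T with GABPα alone, -0.92, -4.16 and -4.93 with CREB1 added, and -1.43, -2.09 and -2.74 for CREB1 alone. The medians over all variants were -4.06, -4.89 and -1.36. The C and T medians with GABPα alone and the T median with CREB1 added come from variants below background. With CREB1 added, 12 of the 22 C variants were also above background in no placement. These C and T medians therefore show neither an order nor a change with CREB1.

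For GABPα alone the lowest G8A doubles carried their second change at position 10 or 11. The doubles of G8A with the mildest effects were G8A+G13T (-0.45 ± 0.11), G8A+C15T (-0.60 ± 0.12) and G8A+C15A (-0.62 ± 0.15). At the other end G8A+G10C averaged -2.18 ± 0.34, G8A+A11T -1.92 ± 0.20 and G8A+G10T -1.72 ± 0.44, although these 3 were above background in the middle placements only. The 3 lowest doubles of all, by fitted value, carried C or T and were at background, where values have no order. Replacing G by A lowered signal in 22 of 22 contexts, an intact CRE or any single change in it, by 0.63 to 1.97. Over the whole site 31.3% of the 4416 pairs of bases in context differed, in either direction and with pairs below background included. With a change at positions 12 to 16 the G-to-A difference lay between -0.97 and -0.63, near the -0.82 of the intact site. With a change at positions 10 or 11 it lay between -1.97 and -0.74, but the low end rests on inner probes below background. Over the middle placements, where all these doubles were above background, the differences were -0.56 for the intact site, -0.73 to -0.47 with positions 12 to 16, and -1.40 to -0.56 with positions 10 or 11.

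In the middle placements all 22 variants with A were above background on all 4 GABPα arrays. Departures from additivity, the effect of a double minus the sum of its single effects, were therefore taken there. These placements were singled out after the values had been seen. On array 2 of GABPα alone, 69.6% of the middle forward spots of G8A+G10C and 71.4% of those of G8A+G10T were above background. That array gave their larger departures, and the part of substituted values in single spots was not tested. For GABPα alone 4 of the 21 G8A doubles departed downwards, against 3.15% of all doubles tested, and none upwards. G8A+G10T departed by -0.64 and -1.04 on the 2 arrays, a mean of -0.84 (SE 0.122, adjusted p = 1.15e-04). G8A+G10C departed by -0.68 and -0.97, a mean of -0.82 (SE 0.117, adjusted p = 9.46e-05). G8A+A11T departed by -0.47 and -0.64, a mean of -0.55 (SE 0.124, adjusted p = 0.00351). All 3 partners are changes in the first CRE arm that on their own left GABPα signal nearly as it was: in the same placements G10T was at 0.10 ± 0.07, G10C at -0.05 ± 0.09 and A11T at -0.09 ± 0.00. G8A itself was at -0.56 ± 0.16 there. G8A+G10A departed less, by -0.32 (adjusted p = 0.0338), a value that missed the threshold in 4 other settings and without either array of GABPα alone (adjusted p = 0.112 and 0.327). The other 17 departures lay between -0.17 and 0.09. In the authors' table A11T missed the threshold (-0.56, adjusted p = 0.0606). Over all 4 placements the test could be read for 14 doubles that were above background together with their singles. None of them departed in either direction by limma (0 negative and 1 positive at an unadjusted p under 0.05), against 3.33% of all doubles departing downwards. The 4 doubles that departed in the middle placements, those with changes at position 10 and G8A+A11T, were not among these 14.

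With CREB1 added, 3 of those 4 doubles no longer departed past the threshold. In the middle placements G8A+G10T departed by 0.05 and -0.10, a mean of -0.02 (adjusted p = 0.894), and G8A+A11T by 0.26 and -0.16, a mean of 0.05 (adjusted p = 0.778). G8A+G10C still departed, by -0.39 and -0.56, a mean of -0.48 (adjusted p = 0.00367), the only 1 of 21, against 20.8% of the doubles tested. That share, like the others over all doubles for the GABPα groups, includes doubles below background, whose departures rest on substituted values. G8A+G10C missed the threshold in the authors' table (-0.21, adjusted p = 0.272), with normexp background correction (-0.28, adjusted p = 0.0696) and without array 2 of the mixed group (-0.39, adjusted p = 0.0587). The change itself was tested between the groups: the departure of G8A+G10T was 0.82 higher with CREB1 (SE 0.197, adjusted p = 0.00372), 0.70 and 0.94 on the slides of arrays 1 and 2. That of G8A+A11T was 0.60 higher (SE 0.200, adjusted p = 0.0231), 0.72 and 0.48 on the slides. For G8A+G10C (0.35, adjusted p = 0.152) and G8A+G10A (0.30, adjusted p = 0.188) the difference between the groups did not pass. The passing differences were 2 of 21 G8A doubles, against 51.8% of all doubles. The A11T difference did not pass with slide as a replicate block (adjusted p = 0.0723), with normexp (0.51, adjusted p = 0.0815) or without array 2 of GABPα alone (0.52, adjusted p = 0.0766) or array 1 of the mixed group (0.39, adjusted p = 0.189), and neither passed in the authors' table (0.75 and 0.73, adjusted p = 0.187 and 0.239). Over 4 placements with CREB1, 2 of 20 doubles departed downwards, G8A+A11T (-0.33 ± 0.25, adjusted p = 0.00379) and G8A+A11C (-0.17 ± 0.02, adjusted p = 0.0459), against 25.4% of all doubles. This count ranged from 0 to 8 over other settings, and was 1 without either array of GABPα alone and 0 without array 2 of the mixed group.

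With CREB1 present the mildest and lowest G8A doubles changed different parts of the CRE. The mildest doubles were G8A+C15A (-0.30 ± 0.09), G8A+C15G (-0.50 ± 0.17) and G8A+C15T (-0.56 ± 0.08), and the lowest G8A doubles were G8A+G10C (-2.51 ± 0.08, in the middle placements above background), G8A+A11C (-1.62 ± 0.14) and G8A+A11T (-1.58 ± 0.05). The 3 lowest fitted doubles of all, G8T+A16G, G8T+C15G and G8T+C15T, were at background and at least 8.0-fold lower. Over the whole site 55.7% of pairs of bases differed, in either direction and with pairs below background included. G-to-A losses were called in 21 of 22 contexts and lay between -1.35 and -0.28. The lowest was the G10C context, where the inner probes of G8A+G10C were below background. Over the middle placements, all above background, it was -0.89, still the lowest of a range reaching -0.32. The context that missed the threshold was G10T (-0.38, adjusted p = 0.0862). Without array 1 of the mixed group 13 contexts were called.

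The difference in effect between the GABPα groups could be read for 15 variants, all with A, that were above background in all 4 placements in both. In 6 of them the loss was larger with CREB1 (81.6% of all variants were lower) and in 2 it was smaller (11.9% were higher). Those shares also cover variants below background, whose substituted values cannot show a change, so they are no like measure for these 15. The median effect over all variants was -4.06 without and -4.89 with CREB1. G8A+G13T went from -0.45 ± 0.11 to -1.28 ± 0.13, a difference of -0.83 (SE 0.154, adjusted p = 1.20e-07), -1.0 and -0.66 on the 2 slides. G8A+C12A went from -0.67 ± 0.15 to -1.41 ± 0.04, a difference of -0.74 (adjusted p = 2.29e-06). G8A+A11C differed by -0.65 (adjusted p = 2.88e-05), G8A+G13C by -0.50 (adjusted p = 0.00126), G8A+C12G by -0.36 (adjusted p = 0.0211) and G8A+A11G by -0.33 (adjusted p = 0.0369). Without array 1 of GABPα alone 3 of these 6 were called. With slide as a replicate block 4 of the 6 were called, G8A+C12G (adjusted p = 0.0852) and G8A+A11G (adjusted p = 0.119) being lost. All these partners change bases 11 to 13 around the centre of the CRE, but G8A+C12T (0.02) and G8A+G13A (-0.09) there were not called. With G at position 8 the same partners also had lower effects with CREB1. G13T went from 0.27 to -0.75, C12A from 0.02 to -0.96 and A11C from -0.08 to -1.1. G13C went from -0.03 to -0.68, C12G from -0.05 to -0.73 and A11G from -0.09 to -0.67. These shifts were thus not particular to variants with A at position 8. G8A alone differed the other way, by 0.47 (SE 0.154, adjusted p = 0.00241), 0.32 and 0.63 on the slides, and G8A+C15A by 0.32 (adjusted p = 0.0389). With the block G8A was still called (adjusted p = 0.0233) and G8A+C15A was not (adjusted p = 0.123). In place of 2 such variants, 1 and 0 were called without arrays 1 and 2 of GABPα alone, and 4 and 1 without those of the mixed group. The G8A difference was 0.81 in the inner placements (adjusted p = 1.34e-10) and 0.14 in the middle ones (adjusted p = 0.519). It was 0.15 in the authors' table (adjusted p = 0.525), 0.25 with normexp (adjusted p = 0.126) and 0.40 without array 2 of GABPα alone (adjusted p = 0.0791). On inner reverse probes of GABPα alone G8A itself had 54.5% and 45% of spots above background, around the 0.5 share that defined detection. The loss from G to A was smaller with CREB1 in 15 of 22 contexts. Over the whole site 43.5% of pairs of bases differed, but in either direction and with pairs below background included. That share is therefore no like measure for the 22 contexts. The 15 became 3 with the replicate block, 5 in the middle placements and 0 with the authors' table. The number was 8 without array 2 of GABPα alone, and 6 and 2 without arrays 1 and 2 of the mixed group. By the authors' deposited values 0 of the 15 variants differed in either direction by limma.

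Among the C variants GABPα signal with CREB1 was measurable beside only some CRE changes. In the middle placements 6 of the 22 C variants, G8C included, were above background on both arrays, 4 on some probes, and 12 on none. G8C+C15A read -2.01 and -1.48, a mean of -1.74 ± 0.38, close to the -1.64 of G8C. G8C+G10T averaged -2.45 ± 0.23, G8C+A16G -2.64 ± 0.36, G8C+C15G -2.77 ± 0.23 and G8C+C15T -2.86 ± 0.34. The measured doubles thus carried any of the 3 changes at position 15, G10T or A16G, and lay between 3.35- and 7.27-fold below the unmutated site. The partially detected doubles were G8C+T14A, G8C+A16T, G8C+C12T and G8C+G13A. The other 12 included all 3 changes at position 11 together with G10A, G10C, C12A, C12G, G13C, G13T, T14C, T14G and A16C, and 11 of them were at least 10.9-fold lower. With G at position 8, all 12 of these CRE changes were above background with CREB1. Their middle-placement effects lay between G10C or A11C (-1.07 ± 0.10 and -1.10 ± 0.15) at the low end and A16C (-0.25 ± 0.16) at the high end. None of the 22 T variants was above background on any probe.

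For CREB1 alone the losses at position 8 grew when the CRE also carried a change at positions 12 to 16. The variation between CREB1 arrays was wider than the spread shared in the fit (pooled SD of effects 0.24, against 0.12 and 0.18 for the GABPα groups), and a fit of the 2 CREB1 arrays alone also called 65 variants lower. G8T+A16C averaged -3.02 ± 0.17, where its single changes add up to -1.51, a departure of -1.55 and -1.47 on the 2 arrays (mean -1.51, SE 0.0735, adjusted p = 4.59e-09). G8T+T14G departed by -1.42 and -1.40, G8T+T14C by -1.37 and -1.34, G8T+A16T by -1.40 and -1.29, and G8T+T14A by -1.29 and -1.16. With C in place of T, G8C+T14G departed by -1.16 and -1.12 (mean -1.14, SE 0.0706, adjusted p = 1.32e-08).

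All 15 T doubles and all 15 C doubles with positions 12 to 16 departed downwards, with medians of -1.19 and -0.83, against 24.2% of all doubles, whose median was -0.04. Of the 15 A doubles 8 did, with a median of -0.21. Counting only doubles above background with both singles, the numbers were 30 of 36 for the 3 bases together. Partners at positions 10 and 11 behaved differently. Of 18 such doubles 1 departed downwards, G8C+A11T (-0.34 ± 0.03, adjusted p = 0.00140), and 2 upwards, G8T+G10C (0.38 ± 0.07, adjusted p = 7.49e-04) and G8T+G10A (0.26 ± 0.03, adjusted p = 0.0117), against 7.04% of all doubles upwards. Without any one of the GABPα arrays 2 of these doubles departed downwards. The unmutated site had 4.44% to 25.5% saturated spots in the reverse placements with CREB1 and none in the forward ones, and saturated spots were found in 2 of 66 member probes in the middle reverse and 1 of 66 in the inner reverse placement. In the forward placements, free of saturation, 29 of the 36 measured doubles departed downwards, and G8T+A16C by -1.46. In the reverse placements the numbers were 24 of 36 and -1.56. By the authors' deposited values 19 of the 36 departed, and 23 and 22 without arrays 1 and 2 of CREB1.

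The same pattern shows in the direct comparison of bases (64.4% of pairs of bases in context differed for CREB1, in either direction). C was below G in 20 of 22 contexts, T below G in 21, T below C in 19 and C below A in 19, while A was below G in 14, all of them with a change at positions 12 to 16. The exceptions for C and T against G were contexts with a change at position 10. The T-to-G difference was -0.56 with an intact CRE, between -0.74 and -0.18 with a change at positions 10 or 11, and between -2.07 and -1.08 with a change at positions 12 to 16. For C to G it was -0.31, between -0.65 and -0.17, and between -1.45 and -0.56. Thus neither range of the far contexts reached the value of the intact site. Without arrays 1 and 2 of CREB1, A was below G in 8 and 4 contexts. In the authors' table T was below G in 5 contexts, C below G in 12 and T below C in 0 (adjusted over the same 4416 pairs).

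The lowest CREB1 signals among the doubles were G8T+G13T (-4.89 ± 0.34), G8T+C12A (-4.67 ± 0.31) and G8C+C12A (-4.47 ± 0.40), each above background in 2 of 4 placements and at least 24.9-, 22.8- and 21.1-fold lower. Positions 12 and 13 are the central C and G of the CRE. The highest were G8A+C15A (-0.55 ± 0.00), G8A+A16G (-0.70 ± 0.05) and G8A+G10T (-0.71 ± 0.02).

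Positions 7 and 9 on either side were compared with position 8 through the mean departure over their 3 bases with the same CRE partner, a test added after the values were seen (69% of the 756 position pairs and partners tested differed). Position 7, the last base of the ETS core, showed a median departure of 0.07 with partners at positions 12 to 16, with 6 of 45 downwards and 4 upwards. Position 8 stood below it for all 15 partners at positions 12 to 16, by 0.33 to 0.94. With partners at positions 10 and 11 it was lower for 3 of 6 and higher for 1. Position 9, the first T of the CRE, had a median departure of -1.27 with positions 12 to 16 and of 0.79 with positions 10 and 11, where 16 of 18 doubles departed upwards. It lay below position 8 for 11 of the 15 far partners and above it for 2, and above it for 6 of 6 near partners (by 0.25 to 1.15). Among the 45 far doubles only 14 were measured at position 9, against 36 at position 8 and 43 at position 7, so the far comparison with position 9 rests largely on doubles that, or whose singles, were below background in some placements. The 2 partners above were C12A and G13T. With far partners the median departure at position 8, -0.77, thus lay between those of positions 7 and 9.

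Strand and placement also shifted CREB1 effects. Losses were smaller on the reverse than on the forward strand in 61 of the 66 variants and larger in none, against 69.8% of all variants with smaller losses. The median difference was 1.01. The unmutated site, against which every loss is taken, had saturated spots on the reverse strand only, as given above, so its reverse signal is a lower bound there. The part of saturation in the strand difference was not tested. The largest was in G8C+G13A, at -3.48 forward and -1.82 reverse (1.66, adjusted p = 5.66e-88), followed by G8A+C12G (-3.61 and -1.99) and G8T+G13A (-4.03 and -2.42). Among variants above background in all 4 placements, G8C+G13A, G8T+G13A and G8A+C12G also had the widest range over single placements, from -3.79 to -1.72, -4.20 to -2.16 and -3.78 to -1.76. The G8A single differed by 0.12 (adjusted p = 0.170), while G8C and G8T differed by 0.23 and 0.32 (adjusted p = 0.00633 and 9.93e-05). The middle reverse probes carry TGACTCA at the junction while the inner reverse probes do not. G8C+G13A was at -1.72 in the former and -1.93 in the latter, and the part of the junction motif in the strand difference was not tested. Among measured variants of the GABPα groups the widest ranges were those of G8A alone (-1.29 to -0.37), G8A+C15T (-1.0 to -0.18) and G8A+C12T (-1.04 to -0.32) without CREB1, and of G8A+A11T (-2.31 to -1.30), G8A+G13T (-1.67 to -0.86) and G8A+A11C (-1.91 to -1.32) with it.

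Signal levels themselves were scaled to each array's 75th percentile, taken over the 1143 sequences above background on every array. They were higher with CREB1 for 53 of the member sequences and lower for 1 (6.73% and 3.58% of the 10812 sequences). Of the higher calls, 20 were sequences with A that were above background in both groups. Another 18 C and 6 A sequences were above background only with CREB1, so their fitted changes rest on values below background without it. The remaining 8 C sequences and 1 A sequence were below background in both groups, so no level can be given for them. G8C went from below background to a level at least 4.01-fold higher in the middle forward placement (adjusted p = 0.00363) and at least 2.52-fold higher in the middle reverse placement (adjusted p = 0.00363), by fitted changes of 3.85 and 3.19. G8C+C15A was at least 3.30- and 2.66-fold higher in these placements (adjusted p = 0.00401 for both). The sequence that was lower was the middle forward probe of G8A+G13T (-0.46, adjusted p = 0.0420). None of the 88 T sequences was above background in either group. These counts depended on the scaling: the percentile over all spots, which moved the median of all sequences from -0.18 to -1.04, gave 29 higher and 154 lower, and without scaling, at a median of -0.39, 19 were higher and 0 lower. Without arrays 1 and 2 of the mixed group 27 and 26 were higher. Without either array of GABPα alone 0 were called by limma, and the G8C changes then had adjusted p-values of 0.0562 and 0.0649. In the authors' table they were 2.39 and 2.30 and did not pass (adjusted p = 0.543 for both).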

How the data were processed

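Processed intensity, Cy5, was read from the deposited scanner files of the 6 arrays. Per the file headers they were made with Agilent Feature Extraction 12.0.1.1. Control and outlier spots were left out, log2 intensity was averaged over the spots of a sequence, and a sequence counted as above background on an array when more than 0.5 of its spots were called so. A placement counted as above background in a group when it was on at least 1 array, and a variant as measured when all 4 placements were. Below background, folds are bounds against the lowest signal above background on the array. The authors' deposited value table holds per-probe intensity, and all 6891 entries were recomputed within 0.01 as the median over spots of median signal minus local background. It was used as an alternative on the log2 scale with a floor of 1.

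Effects, departures, contexts, strand differences and level changes were tested in R 4.3.3 with limma 3.58.1 (lmFit, eBayes) and Benjamini-Hochberg adjustment over all variants, doubles, pairs or sequences, at 0.05. The fits used all 6 arrays, or the 4 GABPα arrays for changes with CREB1. They were run on simulated data with independent errors for each variant. The measured effects share an unmutated reference on each array and include substituted values. That check therefore cannot show that the calls hold for these data. An exact permutation test of 2 against 2 arrays cannot go below 0.333. Arrays with the same number in the GABPα groups shared a slide per the file headers. Their deviations in effect correlated at -0.366 over all variants, so the slide is given as an alternative. Named variants are the 3 singles, the highest and lowest 3 doubles per group, and those with the largest departures, differences with CREB1 and ranges over placements. The C doubles and the doubles named for their middle placements were chosen after their values were seen. The variants and lists were chosen with earlier results of these data known. Alternatives were the authors' table, normexp correction (offset 50), medians over spots, other placements, scalings and variance models, dim variants left out, and leaving out each array. The outer placement entered only as an alternative.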

Additional observations from a re-analysis of the deposited data

Results flagged for a closer look

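The effects of 8 variants with A at position 8 differed between GABPα with and without CREB1 by a test of the difference itself. Losses were larger with CREB1 for G8A+G13T (-0.83), G8A+C12A (-0.74), G8A+A11C (-0.65), G8A+G13C (-0.50), G8A+C12G (-0.36) and G8A+A11G (-0.33, adjusted p = 0.0369 in the limma fit), and smaller for G8A (0.47) and G8A+C15A (0.32). The signs were the same on both slides for each of the 8, and with slide as a replicate block G8A+C12G, G8A+A11G and G8A+C15A missed the threshold. The G8A difference did not pass in the middle placements alone or with normexp. By the authors' deposited values none of the 8 was called. In the middle placements the departures from additivity of G8A+G10T and G8A+A11T were higher with CREB1, by 0.82 and 0.60. Neither difference passed in the authors' table, and that of G8A+A11T also missed the threshold with the replicate block and with normexp. The partners of the doubles with larger losses also had lower effects with CREB1 beside G at position 8. The causes of these differences were not tested.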

How the results depend on the processing

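Substituted values below background limit the GABPα results for C and T, 2 arrays per group limit every test, and the authors' table made 0 calls for several counts. No named effect, departure or signal change turned sign, but the balance of sequences higher and lower with CREB1 turned with the percentile over all spots (29 and 154) and more were lower with the trend (93). The single placement strands, the middle departures, the comparison of positions and the crossed pairing were chosen after seeing the data. The 66 variants lower with GABPα alone and with CREB1 became 14 and 20 when dim variants were left out, since fewer were fitted. For the rest the cause was not tested. With the authors' table, downward departures fell to 0 for GABPα with CREB1, 19 and 0 for CREB1 with far and near partners, and 2 and 0 in the middle placements without and with CREB1. CREB1 contexts were 4 (A below G), 12 (C below G), 5 (T below G), 0 (T below C) and 11 (C below A). Variants lower and higher with CREB1, smaller G-to-A losses, and sequences higher and lower were 0 each in that table. With normexp the downward departures with CREB1 were 0 over 4 and 0 over middle placements, variants higher 0, smaller losses 9, and sequences 31 higher and 0 lower. With medians over spots the departures were 1 (GABPα with CREB1) and 3 (CREB1, near partners), and 0 sequences were lower. The GABPα-with-CREB1 departures were 8 over all 6 placements, 0 in the middle, 8 in the inner, 6 in the forward and 0 in the reverse ones, 1 without dim variants and 1 in a fit of that group's arrays. Near-partner CREB1 departures were 2 with an intensity trend and 2 in a fit of the CREB1 arrays. Variants lower with CREB1 were 10 over 6 placements and 3 in the reverse ones. Variants higher were 0 over 6 placements, 0 in the middle, 8 in the inner, 4 in the forward and 1 in the reverse ones, 5 without dim variants and 4 with the trend. Smaller losses were 4 over 6 placements and 5 in the middle. Sequences higher and lower were 29 and 154 with the percentile over all spots, 19 and 0 without scaling, and 34 and 4 with quantile scaling. Lower sequences were 93 with the trend and 0 with all 6 arrays fitted. With slide as a replicate block, GABPα-with-CREB1 departures were 1, variants higher 1, smaller losses 3, and sequences 33 higher and 0 lower. The crossed pairing gave 5 variants higher, 28 sequences higher and 0 lower. Leaving out each array in turn gave 0 to 3 GABPα-with-CREB1 departures, 22 to 30 far and 1 to 2 near CREB1 departures, 13 to 22 G-to-A contexts with CREB1, 4 to 14 A-below-G contexts for CREB1, 0 to 1 middle departures with CREB1, 3 to 6 variants lower, 0 to 4 higher, 2 to 14 smaller losses, 0 to 27 sequences higher and 0 to 0 lower.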
